A study of Mus musculus with 2 samples.

Results

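The 10 genes described here encode the 5 subunits of the transcription factor NF-κB (Nfkb1, Nfkb2, Rel, Rela and Relb) and 5 of its IκB regulators (Nfkbia, Nfkbib, Nfkbid, Nfkbie and Nfkbiz). They were chosen by gene symbol, and all 10 were found among the 24013 gene symbols of the deposited count table. Where a symbol had several transcript rows (Nfkb2, Relb and Nfkbiz), the row with the higher or highest average over the libraries was used. The study sequenced RNA from CD8 T cells of C57BL/6 mice, with 1 library from wild-type mice aged 7 weeks and 1 library from DGKζ-/- mice aged 6 weeks. DGKζ is diacylglycerol kinase ζ, and the labels state neither how its gene was disrupted nor how many animals gave each library. Naive CD8 T cells were taken from the spleen of each genotype and kept for 24 hours on plates coated with antibodies to CD3 and CD28, which stand in for antigen and costimulation. No unstimulated library was part of the comparison, so the values describe activated cells only.

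NF-κB is a dimer of Rel-family proteins that waits in the cytoplasm of resting T cells, held there by IκB proteins. Diacylglycerol made after T cell receptor engagement recruits protein kinase Cθ, which acts by way of BCL10 and MALT1 on the IκB kinases. These kinases mark IκBα for destruction, and the freed dimers enter the nucleus and drive activation, survival and cytokine genes, among them Nfkbia itself. DGKζ removes diacylglycerol by phosphorylating it, which is why the NF-κB genes are of interest in cells that lack the kinase. Transcript levels report on the supply of subunits and inhibitors, not on the location or activity of the proteins.

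Each genotype has a single library, so none of the differences could be set against a spread between animals or cultures, and no p-value was computed. Intervals are exact 95% counting intervals, which cover the sampling of reads only, since no molecular identifiers separate molecules from copies. Reads over all genes came to 37211969 in the wild-type and 13464169 in the deficient library. Dgkz stood at 6714 (wild type) and 2591 (deficient) normalized counts, 2.59-fold lower (2.46 to 2.74), and the table does not show whether the remaining reads fall in the disrupted stretch of the gene. Xist, made from an inactive X chromosome, was at 14.0 and 9206 normalized counts, so the sex of the animals and their age cannot be told apart from the genotype. All 8 CD8 T cell marker genes were measured, with log2 ratios from -0.87 to 0.29, a median of -0.38 and 6 of the 8 below 0. The 10 B cell markers summed to 3065 normalized counts in the wild-type and 2266 in the deficient library, and all 8 of those measured had log2 ratios below 0, from -1.25 to -0.04. The 10 myeloid markers found in the table summed to 286 and 274, the 3 CD4 T cell markers to 490 and 422 and the 5 NK cell markers to 1000.01 and 773. Within these sums, Cd4 was at 171 and 53.2 and Foxp3 at 262 and 321, and Klrd1 was at 395 and 134 and Klrk1 at 587 and 633. The NK cell sum is nearly all Klrd1 and Klrk1. Ncr1, Klrb1c and Klre1 were at 9.33 or fewer in the wild-type and 6.86 or fewer in the deficient library. In the deficient library 2 genes of the NK cell and 3 of the myeloid list were at 0. These genes had only 1 to 9 reads in the deeper wild-type library, so their zeros say little. Of the 2 measured myeloid markers, Mpeg1 was at 127 and 185 normalized counts and Cd68 at 93.9 and 70.3. B cells and myeloid cells also express NF-κB genes, and the part these cells had in the values of the 10 genes was not tested. In bulk RNA, fewer cells of a type and less RNA per cell cannot be told apart.

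NF-κB binds the κB motif, a near-palindrome of G and C runs around an A and T core, and several genes of the family are known to carry it in their promoters. The promoters are shown for the motif alone, and whether a match goes with a difference between the libraries was not tested. Promoter windows of 300 bases (250 before and 50 after the start site) from RefSeq, build GRCm38.p6, were found for 7 of the 10 genes, 11 windows in all, some of which overlap. The κB consensus was searched on both strands, with overlapping matches allowed, and it was present in 7 of these windows and 5 of these genes (Nfkbia, Nfkb2, Rel, Nfkbid and Nfkbie). A match of Nfkb2 that lies in both of its overlapping windows is counted in each. Among all 32851 promoter windows of that length 4.51% held it, as did 5.14% of the genes with a window. The last 100 bases before the start site are printed 5′ to 3′ on the strand of the gene for 3 genes with a match there and for Nfkbib, which had the third largest fold and no match in its window. Capitals mark the κB match, and adjoining matches run together.
Nfkbia, chr12:55492648-55492747, minus strand: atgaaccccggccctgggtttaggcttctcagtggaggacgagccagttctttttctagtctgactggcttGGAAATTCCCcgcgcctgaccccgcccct
Nfkb2, chr19:46304637-46304736, plus strand: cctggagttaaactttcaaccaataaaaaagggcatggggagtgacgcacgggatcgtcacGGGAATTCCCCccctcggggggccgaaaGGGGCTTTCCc
Rel, chr11:23770970-23771069, minus strand: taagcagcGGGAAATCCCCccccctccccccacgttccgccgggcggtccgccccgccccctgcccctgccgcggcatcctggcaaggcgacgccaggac
Nfkbib, chr7:28766645-28766744, minus strand: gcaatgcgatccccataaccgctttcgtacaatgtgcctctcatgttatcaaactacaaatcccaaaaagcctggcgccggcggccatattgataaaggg

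The match of Nfkbia begins 29 bases before its start site. Nfkb2 has 3 windows, all with matches, and in the window printed they begin 39, 38 and 11 bases before the start site, and the first of them, GGGAATTCCC, reads the same on both strands. In its second window matches begin 236 bases before and 10 bases after the start site, and the third window, which overlaps the second, holds 1 at 225 bases before. The match of the third window is the same site as the downstream match of the second. The matches of Rel begin 92 and 91 bases before the start site. Nfkbid has matches in 1 of its 3 windows, 226 and 181 bases before the start site, and Nfkbie has 1 at 106 bases. The windows of Nfkbib (1.50-fold higher in the deficient library) and Rela (1.11-fold lower) held no match. The genes with matches, Nfkbia, Nfkb2, Nfkbid, Rel and Nfkbie, had folds of 2.01, 1.73, 1.46, 1.22 and 1.10. A match is a string of letters and not a measured binding site, and a window without one says nothing about binding elsewhere. The files carry no positions, and the reads were mapped to mm9 per the submitters' processing notes, so these coordinates belong to the RefSeq sequences only.

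As a group the NF-κB and IκB genes were read higher in the deficient library, with Nfkbia and Nfkb2 at the top and Rela on the other side. The log2 ratio used below is log2((deficient + 10)/(wild type + 10)) of normalized counts, and the comparison covers the 10518 genes that averaged 50 normalized counts or more. All 10 genes passed that minimum. Of the 10, 9 had a log2 ratio above 0, against 58.2% of all compared genes, and their median log2 ratio was 0.42 against 0.05 for all compared genes. At equal totals and after recentring the 9 became 8, since Nfkbiz changed sides. The 58.2% does not hold for those settings, where the median of all compared genes was -0.03 (equal totals) or was set to 0 (recentring). The counting interval of the fold lay wholly above 1 for 7 of the 10, against 35.8% of all genes, and wholly below 1 for 1 of the 10 (Rela), against 21.7%. Whether an interval holds 1 depends on the number of reads, and these shares of all genes were not matched to the reads of the 10. Only Nfkbia reached a log2 ratio of 1, as did 1.30% of all genes, and 0 of the 10 reached -1, as did 1.29%. These counts of members are descriptive, since the genes share their 2 libraries and were picked with earlier results in view. When both libraries were scaled to equal totals, the split of all genes past 2-fold changed from 137 higher and 136 lower to 115 higher and 179 lower.

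**Figure D1:**
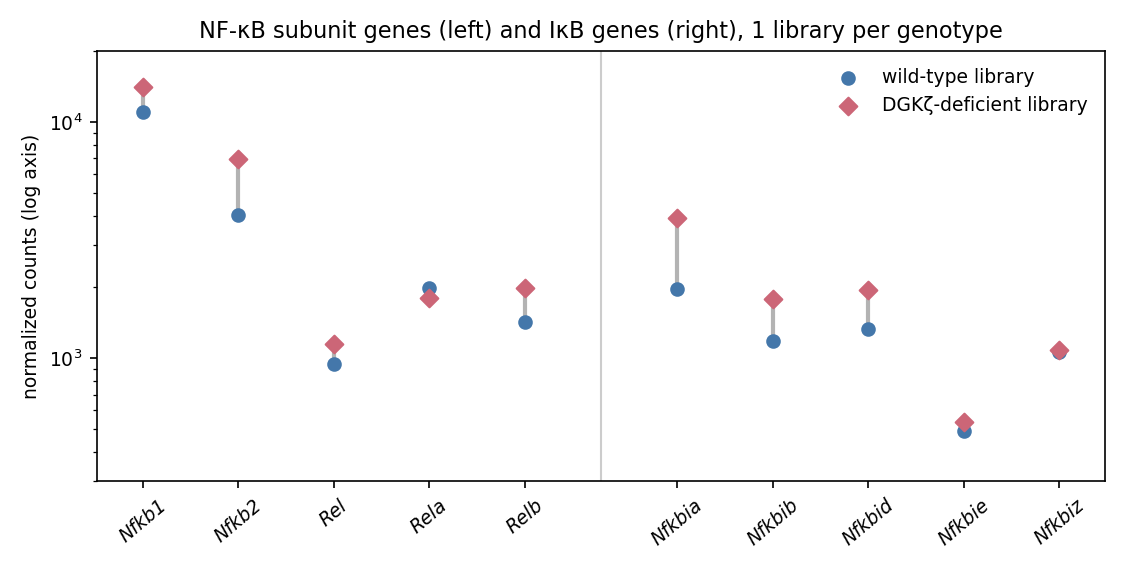
Normalized counts (log axis) of the 5 subunit genes and the 5 IκB genes, with 1 point for each library and a grey line joining the pair. The deficient library (diamonds) lies above the wild-type library (circles) for 9 of the 10 genes (8 when both libraries are scaled to equal totals, where Nfkbiz changes sides), with the widest gaps at Nfkbia and Nfkb2, and below it for Rela.

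Both genes of the precursor subunits were read higher in the deficient library. Nfkb1 encodes p105, which is processed to the DNA-binding subunit p50. Its normalized count was 11031 in wild-type and 14001 in deficient cells, from 18918 and 8164 reads. That is 1.27-fold higher (1.24 to 1.30), a log2 ratio of 0.34 that exceeded those of 87.6% of all compared genes. The interval is the narrowest of the 10 because the gene had the most reads. Nfkb2 encodes p100, the precursor of p52 and at the same time an inhibitor of RelB. It stood at 4012 and 6954 normalized counts, from 6880 and 4055 reads, 1.73-fold higher (1.67 to 1.80) in the deficient library. Its log2 ratio of 0.79 was passed by 230 of all compared genes. The 3 transcript rows of Nfkb2 gave log2 ratios from 0.79 to 0.79, so the choice of row did not matter to it. Psd, 1 of 2 genes that overlap Nfkb2 in the RefSeq annotation and that reads without strand cannot separate from it, was at 187 and 201 normalized counts. Nfkb1 overlaps Gm46827 and Nfkbib overlaps Ccer2, neither analysed here, and the other 7 genes overlap none.

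The 3 subunits with a transactivation domain differed from each other. Relb, the partner of p52 in the alternative pathway, had 1414 (wild type) and 1986 (deficient) normalized counts, 1.40-fold higher (1.31 to 1.51). Its 2 transcript rows hold identical values. Rel encodes c-Rel, the subunit tied most closely to cytokine genes such as Il2 in lymphocytes. It was read at 941 and 1147 normalized counts, from 1613 and 669 reads, 1.22-fold higher (1.11 to 1.34), and its log2 ratio of 0.28 exceeded those of 83.0% of all genes. Rela encodes p65, the partner of p50 in the most common dimer. It stood at 1983 (wild type) and 1794 (deficient) normalized counts, 1.11-fold lower (1.03 to 1.19), and 24.6% of all genes had a lower log2 ratio. Rela is therefore the single subunit gene of the 5 that read lower in the deficient library, and by a small margin.

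Nfkbia, which encodes IκBα, the rapidly destroyed and rapidly resynthesized inhibitor, had the largest difference of the 10. Its normalized count was 1955 in wild-type and 3924 in deficient cells, from 3353 and 2288 reads. That is 2.01-fold higher (1.90 to 2.12), and 136 of the 10518 compared genes had a higher log2 ratio. Its log2 ratio of 1.001 sits on the 2-fold line, and its interval reaches below 2. It fell short of that line with a pseudocount of 50 (0.99), at equal totals (0.91), after recentring all genes on a median of 0 (0.95) and with TMM scaling (0.99). Nfkbib encodes IκBβ, an inhibitor that is degraded more slowly. It was at 1182 and 1775 normalized counts, 1.50-fold higher (1.39 to 1.62). Nfkbie encodes IκBε, the third classical inhibitor, and it had the fewest reads of the 10 in both libraries, 839 and 313. It stood at 489 and 537 normalized counts, and the interval of its fold of 1.10 (0.96 to 1.25) holds 1.

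The nuclear IκB proteins bind NF-κB on DNA and change which target genes respond. Nfkbid encodes IκBNS, and its normalized count was 1329 in wild-type and 1945 in deficient cells, 1.46-fold higher (1.36 to 1.57). Nfkbiz encodes IκBζ and stood at 1064 and 1080, a fold of 1.02 whose interval (0.93 to 1.11) holds 1. The 3 transcript rows of Nfkbiz gave log2 ratios of 0.02, 0.02 and -0.01, and its sign also turned at equal totals (-0.07) and after recentring (-0.03). The nuclear and the classical IκB genes thus each contained a gene with no difference beyond counting error, Nfkbiz and Nfkbie.

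In the order of the folds, Nfkbia, Nfkb2 and Nfkbib came first, followed by Nfkbid, Relb, Nfkb1, Rel, Nfkbie, Nfkbiz and Rela. Among neighbours in this order, the counting intervals of Nfkbia and Nfkb2, of Nfkb2 and Nfkbib, and of Relb and Nfkb1 did not overlap, while those of the other neighbours did. The change between the libraries in the ratio of 2 genes' reads depends neither on the size factors nor on gene length, and it was computed for all 45 pairs. The 95% counting interval of that change (conditional odds ratio) excluded 1 for 39 pairs and held 1 for 6. No share over pairs of other genes was computed, so these counts of pairs do not set the family apart. They depend on the number of reads, since the interval covers the sampling of reads only. The pairs also share genes and libraries, so they are not independent of each other. Relative to Rela, Nfkbia was 2.22-fold higher in the deficient library (2.03 to 2.42), Nfkb2 1.92-fold (1.77 to 2.08) and Relb 1.55-fold (1.41 to 1.72). Nfkb2 was 1.37-fold higher relative to Nfkb1 (1.30 to 1.43). Relative to Nfkbie, Nfkbia was 1.83-fold higher (1.59 to 2.11). The pairs Nfkbib and Nfkbid, Nfkbib and Relb, Nfkbid and Relb, Nfkb1 and Rel, Rel and Nfkbie, and Nfkbie and Nfkbiz were those whose interval held 1, which does not show that they differed equally between the libraries.

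**Figure D2:**
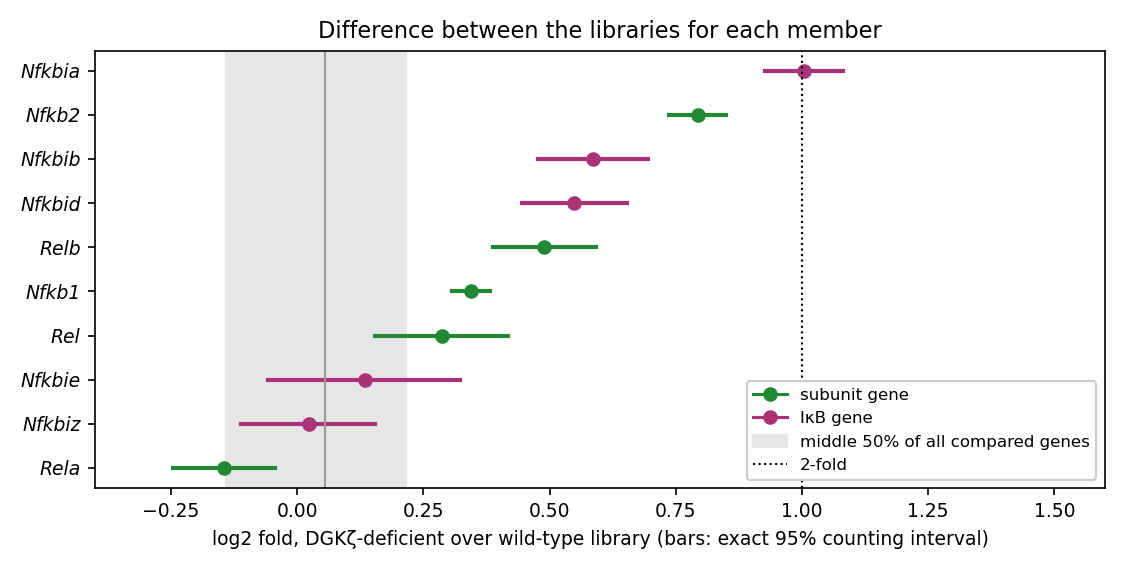
Log2 fold of the deficient over the wild-type library for each gene, with exact 95% counting intervals as bars, the middle 50% of all compared genes as a grey band (-0.14 to 0.22) and their median of 0.05 as a grey line. Nfkbia reaches the dotted 2-fold line, Rela lies below 0, and the intervals of Nfkbie and Nfkbiz hold 0.

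Levels were compared between genes only per length, as normalized counts per kilobase of the matched GENCODE M21 transcript, which may differ from the transcript model the authors counted. Lengths were found for all 10 genes and for 98.9% of the compared genes. On this scale Nfkb1 was the highest of the 10 in both libraries, at 2679 (wild type) and 3401 (deficient), above 94.2% and 95.2% of genes. In the wild-type library Nfkb2 (1277) and Nfkbia (1239) followed, with overlapping counting intervals. In the deficient library Nfkbia (2487) stood above Nfkb2 (2214), and their intervals did not overlap. Rela, at 730 and 660 per kilobase, came next in the wild-type library, but in the deficient library it lay below Nfkbid (954), Relb (903) and Nfkbib (861). Rel was the lowest of the 10 in both libraries, at 126 and 154 per kilobase, on a transcript of 7466 bases. Nfkbiz (258 and 263) and Nfkbie (201 and 220) lay just above Rel, and the intervals of these 2 genes overlapped in the deficient library only.

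**Figure D3:**
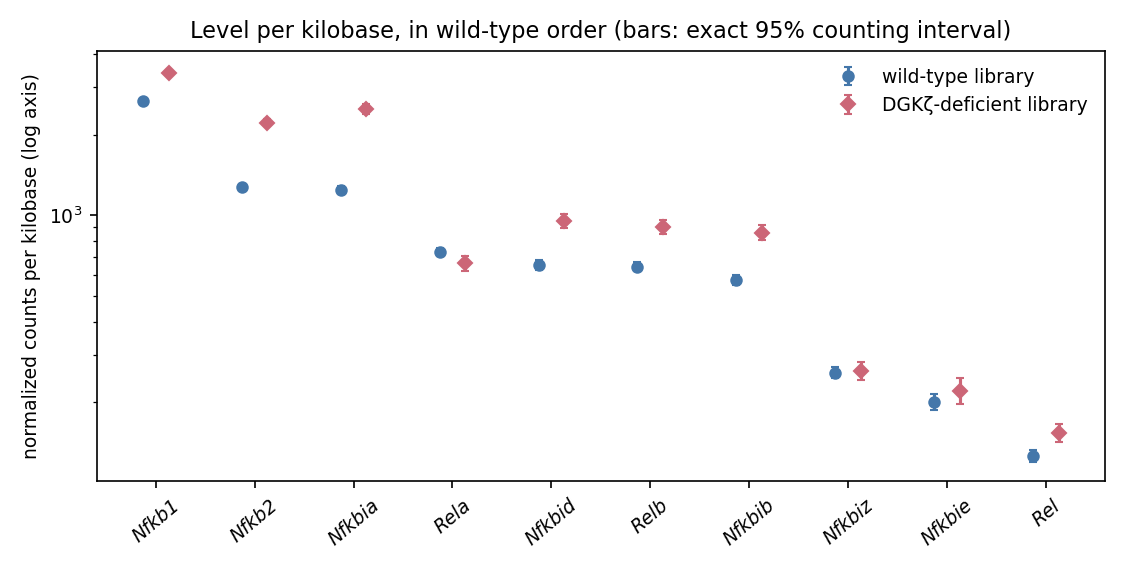
Normalized counts per kilobase of transcript (log axis) for each gene in both libraries, in wild-type order, with exact 95% counting intervals. Rela is the only gene whose deficient value lies below its wild-type value (at equal totals also Nfkbiz), and Nfkbid, Relb and Nfkbib pass it in the deficient library.

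The makeup of each class followed from these levels. A share depends on the other genes of the class, so a gene with a higher count can take a smaller share. Of the summed subunit level per kilobase, Nfkb2 made up 23.4% in the wild-type and 30.2% in the deficient library, and Rela 13.4% and 9.01%. As shares of the subunit reads, which carry a counting interval, Nfkb2 took 20.7% (20.3 to 21.1) and 26.9% (26.2 to 27.6), and Rela 10.2% (9.91 to 10.6) and 6.93% (6.53 to 7.35). The intervals of the 2 libraries did not overlap for either gene. Relb took 7.30% (7.02 to 7.58) and 7.67% (7.25 to 8.11) of the subunit reads, with overlapping intervals, as did Rel with 4.85% (4.62 to 5.09) and 4.43% (4.11 to 4.77). Nfkb1 took 56.9% (56.4 to 57.5) and 54.1% (53.3 to 54.9) of them, a smaller share in the deficient library with intervals that did not overlap. Nfkb1 and Nfkb2 together, the genes of the precursors, made up 72.5% and 76.6% of the subunit level per kilobase, and of this pair only Nfkb2 had the larger share in the deficient library.

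Among the IκB genes, Nfkbia made up 42.4% of the level per kilobase in the wild-type and 52.0% in the deficient library. Its share of the IκB reads was 32.5% (31.6 to 33.4) and 42.4% (41.0 to 43.7). Nfkbiz held 17.7% (16.9 to 18.4) and 11.7% (10.8 to 12.6) of those reads, and Nfkbie 8.13% (7.61 to 8.67) and 5.80% (5.19 to 6.45). The shares of Nfkbib and Nfkbid had overlapping intervals in the 2 libraries. Summed over each class, the IκB level per kilobase was 0.54 times the subunit level in the wild-type and 0.65 times in the deficient library. The level of Nfkbia was 1.70 times that of Rela in the wild-type and 3.76 times in the deficient library.

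**Figure D4:**
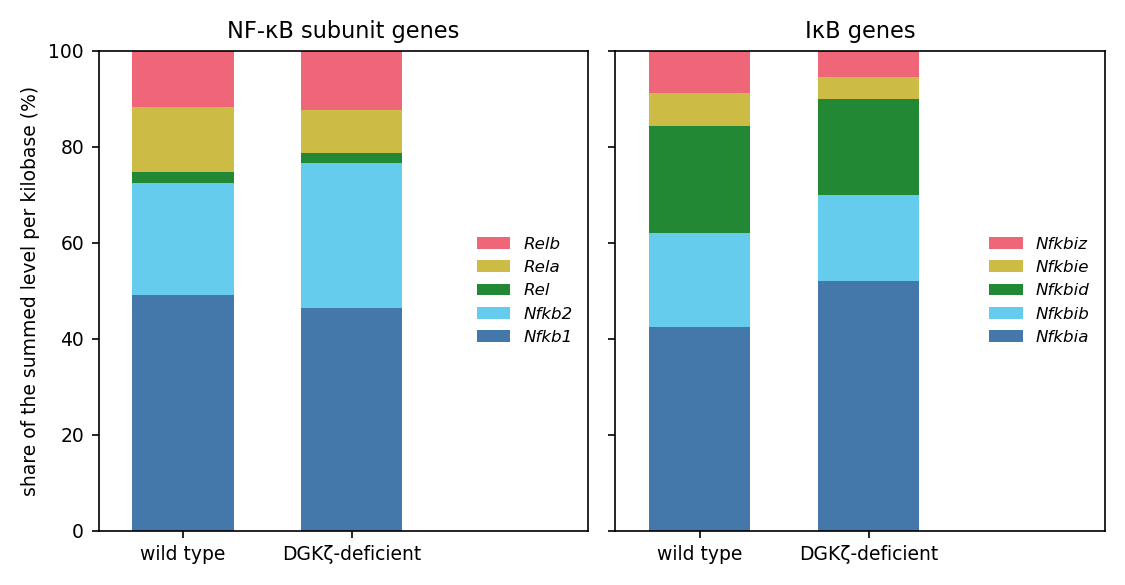
Share of each gene in the summed level per kilobase of the 5 subunit genes and of the 5 IκB genes, in percent, with 1 bar for each library. The Nfkb2, Relb and Nfkbia segments are larger and those of the other genes smaller in the deficient library, with Relb at 11.8% and 12.3%. A smaller share can go with a higher count, as for Nfkb1 (49.1% and 46.4%).

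Genes that NF-κB is known to activate were for the most part read higher in the deficient library, by a median log2 ratio of 0.47 against 0.05 for all compared genes. The target list held 41 genes other than the 10, of which 36 passed the minimum. Of these, 30 had a log2 ratio above 0 (58.2% of all genes did), 7 had a log2 ratio of at least 1 (1.30% of all genes), 1 had one of -1 or less and 28 had neither. The list was drawn up with earlier results of these libraries known, so it is no independent evidence of a direction. Whether NF-κB itself accounts for the values of the listed genes was not tested. The largest log2 ratio belonged to Il2, the T cell growth factor gene and a known c-Rel target, at 2.90, with 162 normalized counts in the wild-type and 1274 in the deficient library. Gadd45b, a stress gene that NF-κB induces to protect cells from death, was at 243 and 813 normalized counts, 3.35-fold higher (2.93 to 3.83). The others with a log2 ratio of at least 1 were Csf2 (1.92), Cd83 (1.44), Cd44 (1.44), Tnfrsf4 (1.39) and Lta (1.04), and Csf2 rests on 27 and 51 reads. Ier3, an early response gene, stood at 83.4 and 170 normalized counts, and its fold of 2.04 (1.56 to 2.65) gave a log2 ratio of 0.95 with the pseudocount, so it is not among the 7. Tnfrsf9, which encodes the costimulatory receptor 4-1BB, was the gene on the other side, with a log2 ratio of -1.13.

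Within the target list, the feedback inhibitors of the pathway had mixed values. Tnfaip3, the ubiquitin-editing inhibitor A20, had a log2 ratio of 0.94, and its partners Tnip1 and Tnip3 had 0.47 and 0.70. Tnip2 (-0.08) and Cyld (-0.04), a deubiquitinase, lay on the other side of 0, and the counting intervals of their folds held 1. The survival genes Bcl2l1, Traf1 and Birc3 had log2 ratios of 0.71, 0.59 and 0.55. Bcl2l1, which encodes BCL-XL, was read at 3618 and 5934 normalized counts. Among the secreted products, Ccl3 was at 0.72, Ccl4 at 0.45 and Tnf at 0.44, whereas Ltb was at -0.20. Myc, at 8613 and 8590 normalized counts, and Irf4, at 27035 and 29469, had folds of 0.997 and 1.09, although both are counted among NF-κB targets in T cells.

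Upstream, the list of genes that relay the receptor signal, from protein kinase Cθ to the IκB kinases and their adaptors, had 20 genes, all measured, of which 0 had a log2 ratio past 1 or -1. Of all genes 1.30% and 1.29% did, so that count is near the background. The median log2 ratio of the list was -0.07, with 9 genes above 0 and 11 below, where 58.2% of all genes lay above 0. Bcl10, an adaptor, and Malt1, its protease partner, had log2 ratios of 0.34 and -0.07, and Prkcq, which encodes protein kinase Cθ, had -0.18. Chuk, Ikbkb and Ikbkg, the genes of the 3 subunits of the IκB kinase, had 0.23, 0.01 and -0.10. The highest values were those of Traf6 (0.43) and Tab2 (0.37), a ubiquitin ligase and an adaptor of the kinase TAK1. Map3k14, which encodes NIK, the kinase that triggers p100 processing, was read at 825 and 698 normalized counts.

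In the cofactor and turnover list 7 of 14 genes lay above 0 and 7 below, near the 58.2% of all genes above 0. The list median was 0.03, and -0.06 at equal totals. Ifrd1, a transcriptional coregulator, was the 1 gene of it with a log2 ratio of at least 1 (1.30% of all genes), at 1386 and 3432 normalized counts and 2.48-fold higher (2.33 to 2.63). Nfkbil1, named for its likeness to the inhibitors, had a log2 ratio of 0.49 and Fbxw7, a ubiquitin ligase receptor, one of -0.40. Btrc and Fbxw11, which encode the β-TrCP receptors that deliver IκBα to the proteasome, were both at -0.04. Bcl3, a nuclear IκB gene that is also on the target list, was read at 220 and 202 normalized counts, and the interval of its fold held 1 (0.74 to 1.13).

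**Figure D5:**
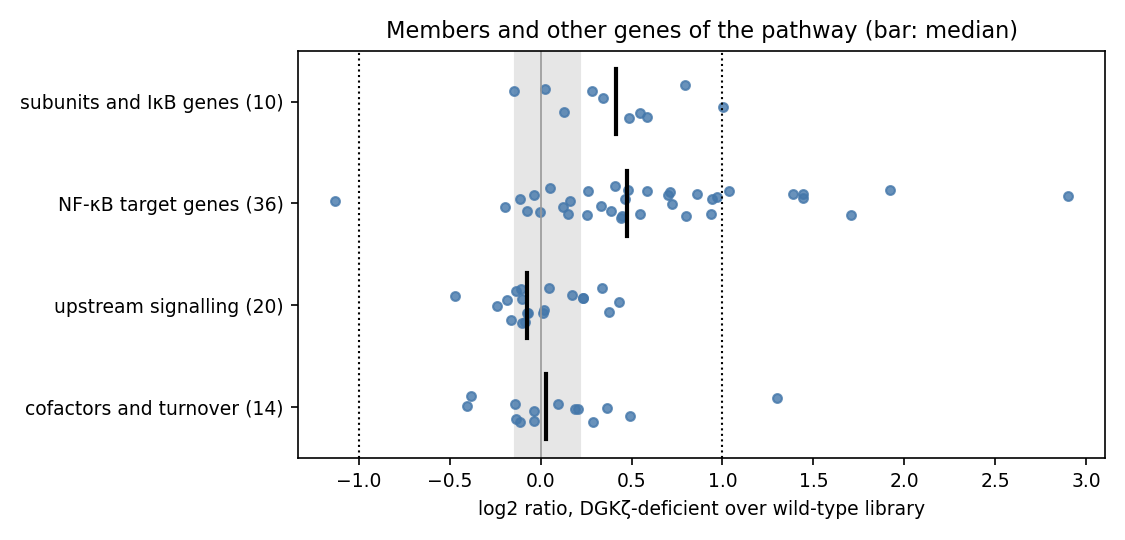
Log2 ratio of the 10 genes and of the measured genes of 3 pathway lists, with 1 point for each gene, a black bar at each median and the middle 50% of all compared genes in grey. The medians of the 10 genes (0.42) and of the target list (0.47) lie right of the grey band, and those of the upstream (-0.07) and cofactor (0.03) lists lie inside it.

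The authors' deposited table lists Nfkbia with a log2 fold change of 0.63 and a p-value of 0.0150, and 23 of its 30433 rows with a p-value have a smaller one. For Nfkb2 the authors' deposited table gives 0.54 and 0.0309, with 164 rows at smaller p-values. The authors' deposited table gives log2 fold changes of 0.40 for Nfkbib, 0.38 for Nfkbid, 0.35 for Relb, 0.27 for Nfkb1, 0.20 for Rel, 0.09 for Nfkbie, 0.02 for Nfkbiz and -0.11 for Rela. Each sign is that of the normalized counts. The adjusted p-value in the authors' deposited table is 0.999 for all 10 genes, and 0 of its rows are below 0.05. That table rests on the same 2 libraries and is no second measurement.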

How the data were processed

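RNA was sequenced from stimulated CD8 T cells in 1 wild-type and 1 DGKζ-deficient library, prepared with a kit (NEBNext Ultra RNA) that does not mark strand, per the labels' protocols. STAR version 2, DESeq and the build mm9 are named in the submitters' processing notes, with no role stated. No counting program is named there. Normalized counts, a signal that is never below 0, were deposited for each RefSeq transcript. In both libraries 100% of values above 0 were whole multiples of 1 step (relative tolerance 0.0001), so whole reads were recovered, with size factors of 1.71 and 0.583. The median of ratios over rows above 0 in both libraries gave the same factors. The authors deposited a second table with log2 fold changes, a score (not used) and p-values; the log2 and p-value entries are quoted only as deposited.

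Of 33018 rows, 1 with shifted columns was left out. Ratios used a pseudocount of 10, and folds used none, with Clopper-Pearson intervals (SciPy 1.17.1, Python 3.11.15). edgeR (4.0.16) supplied TMM factors; its quasi-likelihood test has no residual degrees of freedom with 1 library per group and was not run. Procedures were tested on simulated data with counting noise only, in which the changed genes differed by more than 2-fold. Recovery of smaller differences and the effect of a spread between animals were not tested. Alternatives were other pseudocounts, scalings, transcript rows and minimums. The members and lists were chosen with earlier results of these data known. All 10 members were described, with Dgkz and every gene of a pathway list past 2-fold and its 3 largest absolute log2 ratios; 1 gene so named is not reported here. Other list genes were named after their values were seen, as were the pairwise ratios.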

Additional observations from a re-analysis of the deposited data

How the results depend on the processing

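Nfkbia was the only one of the 10 genes past 2-fold, and the count of 1 became 0 with a pseudocount of 50, at equal totals, after recentring and with TMM scaling. Equal totals lowered the log2 ratio of each of the 10 genes, and their median to 0.33. The new values of Nfkb1 (0.25), Nfkb2 (0.70) and Nfkbia (0.91) lay outside their counting intervals. That of Rela (-0.23 against -0.14) lay inside its own. Recentring also lowered each of the 10 genes, with Nfkb1 at 0.29. The sign turned for Nfkbiz (lowest value -0.07), for the median of the cofactor list (-0.06) and for the median of all compared genes (-0.08), and for none of the other 9 genes of the family. The median ranged from 0.39 to 0.48 for the target list and from -0.16 to -0.07 for the upstream list. With other transcript rows, the wild-type share of Nfkbiz per kilobase was 9.22% (lowest row) and 9.27% (mean of rows) against 8.84%, and the other shares moved by less than the relative width their read counts give. Over all genes, 136 were at least 2-fold lower, against 67 with a pseudocount of 50, 247 at a minimum mean of 10, 71 at 200 and 375 with no minimum. Leaving out a replicate was not possible, and no paired analysis was possible because each genotype has 1 library. The deficient library had 2.76 times fewer reads, which sets the width of most intervals.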

Other observations

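The p-values of the authors' deposited table fall as the difference grows, but not for the largest differences. Their median was 0.377 for compared genes with an absolute log2 ratio from 0.25 to 0.5, 0.166 from 0.5 to 0.75 and 0.104 from 0.75 to 1, the range that holds Nfkb2. Among genes from 1 to 1.25 (132 genes, Nfkbia among them), the median p-value in the authors' deposited table was 0.0732 and the median absolute log2 fold change there was 0.48. The median p-value was 0.0992 for the 60 genes from 1.25 to 1.5. Among the 81 genes with an absolute log2 ratio of at least 1.5, the median p-value in the authors' deposited table was 0.302 and the median absolute log2 fold change was 0.17. Dgkz, with a log2 ratio of -1.37, falls in the range from 1.25 to 1.5. The authors' deposited table gives it a log2 fold change of -0.20 and a p-value of 0.305. The medians of that range were 0.40 (absolute log2 fold change) and 0.0992. The rank of Nfkbia and Nfkb2 in that table is therefore not a rank among the genes with the largest differences. The cause was not tested.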
